A study of Mus musculus with 18 samples.

Results

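RNA was sequenced from mouse embryos at E10.5 whose heads had been removed, in 3 libraries from embryos homozygous for Del(i9-13):Hoxb13hd and in 3 libraries from embryos homozygous for Hoxb13hd. The hd allele was present in both groups, so that the labelled difference between them was the mutation Del(i9-13) of the HoxB cluster alone, taken here as a deletion that lies between Hoxb13 and Hoxb9. These 6 libraries were chosen by their labels out of 18 in all. A further 3 libraries from Del(i9-13) embryos and 3 from wild-type (WT) embryos at E10.5 entered the same fit, and the remaining 6 came from Del(i9-13) and WT embryos at E9.5. All mutants were homozygous, and the labels describe the WT embryos as littermates of mutants without saying of which. What hd stands for, the strain, and whether a library held a single embryo or a pool are not stated in the labels, so that p-values speak of the spread among these libraries, part of which may be technical.

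Totals of the 6 libraries ran from 19.3 to 25.7 M counts, and replicates varied beyond sampling noise in both groups, with chi-square values of 12.7 in Del(i9-13):Hoxb13hd and 22.4 in Hoxb13hd per degree of freedom. Xist and Y-linked genes differed between the replicates of each group, so that the replicates were not repeats of a single sample. Del(i9-13):Hoxb13hd replicate 1 and Hoxb13hd replicates 2 and 3 expressed Y-linked genes, so that the groups were not balanced for sex. The tissue label was checked against 15 markers of the head and brain. The head factor Otx2 and the eye factor Six3 had at most 1 count in any of the 6 libraries, and 6 of the 15 markers were expressed highly enough to be tested. Hoxb13hd replicates 2 and 3 stood apart from the other libraries on the first principal component, which held 25.6% of the variance, at 31.4 and 28.5. They are the same Hoxb13hd libraries that expressed Y-linked genes. On the same component Hoxb13hd replicate 1 lay at 15.95 and the Del(i9-13):Hoxb13hd libraries lay at 3.35, −5.44 and 1.12.

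Hox genes encode homeodomain transcription factors that are switched on in the order in which they lie along their clusters, and they give cells of the trunk and tail their position along the body. Hoxb13 lies at the 5′ end of the HoxB cluster, separated from Hoxb9 by a long interval without other Hox proteins, and in mice its loss lengthens the tail. New trunk and tail tissue is supplied by the tail bud, where neuromesodermal progenitors give rise to spinal cord and to somites, under Wnt and Fgf signals and with the timing gene Lin28a. The series title links insulation of Hoxb13 to the timing that sets tail length.

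The interval also holds the gene of a microRNA, a short RNA that pairs with messenger RNAs mostly through bases 2 to 8, its seed. Mir196a-1 (chr11:96265164-96265265, plus strand, mm10) gives rise to the mature RNA below, which is shown because its gene lost counts along with the interval. The capitals mark the seed. Sequences are from RefSeq on GRCm38.p6, the assembly that mm10 is built on.

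mmu-miR-196a-5p: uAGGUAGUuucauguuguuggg

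Levels are given in CPM, counts scaled to a common library size with TMM factors. Changes are fitted log2 differences, Del(i9-13):Hoxb13hd minus Hoxb13hd, with their standard error (SE). Genes were called at an adjusted p of 0.05 by the quasi-likelihood test of edgeR with Benjamini-Hochberg adjustment over all genes tested. "Rose" and "fell" are used of called genes.

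Hoxb13, which flanks the interval on its 5′ side, and Gm53 within it separated the 2 groups in every library. Hoxb13 (ENSMUSG00000049604, chr11:96194316-96197447, plus strand) had 255, 307 and 228 counts in the Del(i9-13):Hoxb13hd libraries, against 0, 1 and 2 counts in the Hoxb13hd libraries. All 3 libraries with the deletion were high and all 3 without it were at or near 0. Its level was 11.1 ± 1.06 CPM in Del(i9-13):Hoxb13hd and 0.0510 ± 0.0529 CPM in Hoxb13hd (SD, n = 3 each), a log2 change of 7.67 (SE 0.86, adjusted p = 0.0032). The ratio of the summed counts was 227, with an exact 95% interval of 77.5 to 1104 that covers counting error only. With an exact permutation test on 3 against 3 libraries the two-sided p was 0.1, the smallest that this design allows. Per length, Hoxb13 reached 3.49 ± 0.266 FPKM in Del(i9-13):Hoxb13hd, between Hoxb5 at 2.37 ± 0.263 FPKM and Hoxb8 at 4.73 ± 0.784 FPKM in the same libraries. In Hoxb13hd it was at 0.0158 ± 0.0163 FPKM.

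Gm53 (ENSMUSG00000078706, chr11:96251105-96264868, plus strand), a long noncoding gene between Hoxb13 and Hoxb9, had 0 counts in each Del(i9-13):Hoxb13hd library, against 652, 1076 and 1041 counts in the Hoxb13hd libraries. This checks the labels of the deletion in these libraries. Taking 3 counts over the whole group as the limit that a count of 0 allows, Gm53 was at least 1070-fold lower in Del(i9-13):Hoxb13hd (adjusted p = 0.00013). Mir196a-1 had 0, 2 and 1 counts in Del(i9-13):Hoxb13hd and 6, 10 and 5 counts in Hoxb13hd. These counts were too low for the fit, and the ratio of 0.123 had a 95% counting interval of 0.0235 to 0.413. The exact permutation p was 0.1 for each of these genes. Libraries of this kind do not measure the mature microRNA.

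Hoxb9 (ENSMUSG00000020875, chr11:96271457-96276595, plus strand), which flanks the interval on its 3′ side, fell. It was at 72.9, 70.2 and 66.6 CPM in the Del(i9-13):Hoxb13hd libraries, against 95.1, 125 and 124 CPM in the Hoxb13hd libraries. The groups did not overlap, and Hoxb13hd replicate 1 lay nearest to the libraries with the deletion. The log2 change was −0.71 (SE 0.11, adjusted p = 0.0093), and the call was lost without Hoxb13hd replicate 2 or 3, with adjusted p of 0.0506 and 0.0510. Per length, Hoxb9 was at 20.6 ± 0.587 FPKM in Del(i9-13):Hoxb13hd and 31.5 ± 3.78 FPKM in Hoxb13hd.

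**Figure D1:**
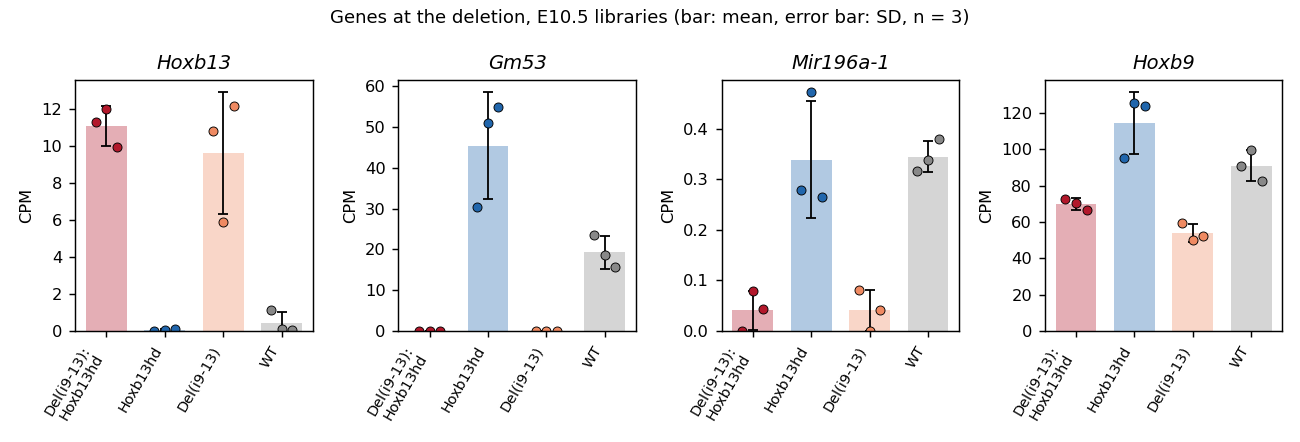
CPM of Hoxb13, Gm53, Mir196a-1 and Hoxb9 in each E10.5 library (points), with the mean (bar) and SD (error bar) of 3 libraries per genotype; axes start at 0 and differ between panels. Hoxb13 is at 11.1 CPM on average in Del(i9-13):Hoxb13hd and 0.0510 CPM in Hoxb13hd, Gm53 is at 0 and 45.4 CPM, and Hoxb9 is at 69.9 and 115 CPM.

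The rest of the HoxB cluster was not called in the main fit. Of all 12 cluster genes, Hoxb13 and Hoxb9 included, 9 had negative values. The groups did not overlap for 6 of the 12, against 22.6% of all genes tested. Hoxb1, active in the hindbrain and the early posterior embryo, had a log2 difference of −0.63 (adjusted p = 0.056), and the antisense transcripts Hoxb3os and Hoxb5os lay at −0.76 (adjusted p = 0.055) and −0.72 (adjusted p = 0.11). DESeq2, used as an alternative, called Hoxb1, Hoxb3os and Hoxb5os (adjusted p of 0.0087, 0.0079 and 0.015). In the main fit Hoxb2 to Hoxb8 lay between −0.30 for Hoxb5 and 0.09 for Hoxb7, with adjusted p of 0.31 and more. The group 13 genes of the other clusters, which act in the tail and the limb ends, were not called either. Hoxa13 was at 4.74 ± 0.559 CPM in Del(i9-13):Hoxb13hd and 5.58 ± 0.634 CPM in Hoxb13hd (log2 −0.24), Hoxc13 at 1.36 ± 0.0873 and 1.09 ± 0.0685 CPM (log2 0.32), and Hoxd13 at 12.3 ± 1.22 and 14.0 ± 1.53 CPM (log2 −0.18). Within 500 kb of Hoxb13, 14 genes were tested, leaving aside Gm53 and the HoxB cluster, and 0 were called. Of these 14, 3 had an unadjusted p under 0.05, as did 2616 of all 17202 genes tested. Their log2 differences ran from −1.20 to 1.03.

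Across the genome, 165 of 17202 genes tested passed, or 0.959%. Of these, 116 genes (0.674%) were higher and 49 genes (0.285%) were lower in Del(i9-13):Hoxb13hd. The median size of the log2 change was 0.80 among the higher genes and 0.90 among the lower genes, and 50 and 20 of them had a change of at least 1. The 3 libraries of each group did not overlap for any of the 165 called genes, as was the case for 22.6% of all genes tested. Log2 differences lay above 0 for 8198 and below 0 for 9003 of all genes tested. With 0.959% of genes called, a short list may well hold no call, so that 0 calls in a list say little about its genes. Pseudogenes made up 9 of the 49 lower genes and 4 of the 116 higher genes, against 2.80% of all genes tested. Calls lay on every autosome and on X, with 1.99% of the genes of chromosome 3 (17 higher, 1 lower) and 1.74% of those of chromosome 9 (13 higher, 4 lower).

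The number of calls depended on single libraries. Without Hoxb13hd replicate 1 there were 306 higher and 106 lower genes. Leaving out Hoxb13hd replicate 2 gave 17 and 19 genes, and leaving out replicate 3 gave 24 and 15. Without Del(i9-13):Hoxb13hd replicates 1, 2 or 3 there were 21, 22 and 29 higher and 17, 21 and 22 lower genes. In all, 25 genes were called whichever of the 6 libraries was left out, 12 higher and 13 lower, of which 10 were pseudogenes.

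**Figure D2:**
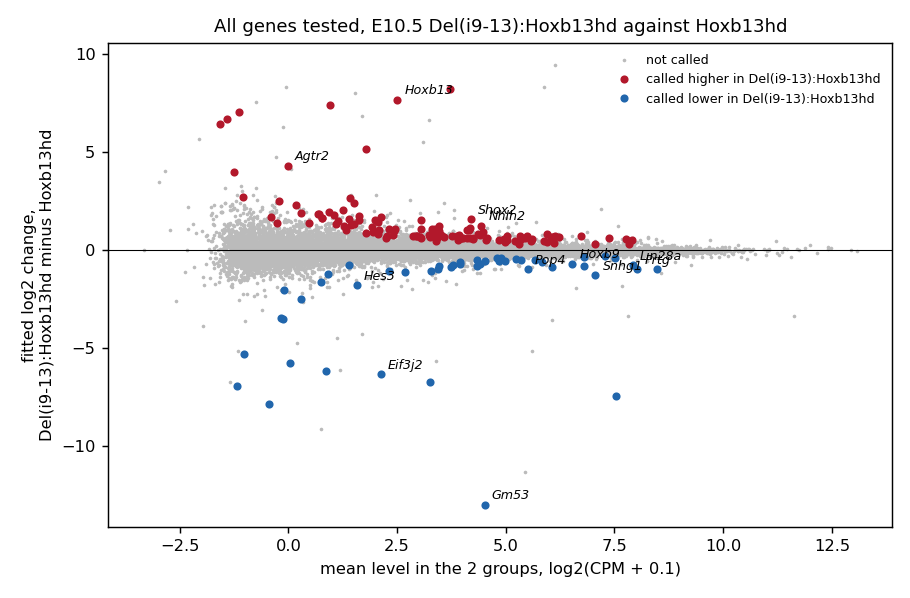
Fitted log2 change (Del(i9-13):Hoxb13hd minus Hoxb13hd) of every gene tested against its mean level in both groups as log2(CPM + 0.1). Points in colour are the 116 genes called higher and the 49 called lower; Hoxb13 is at a log2 change of 7.67 and Gm53, with 0 counts in Del(i9-13):Hoxb13hd, is the lowest point.

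Several of the higher genes are known from limb, muscle and connective tissue. Shox2, a homeobox factor of the proximal limb and of other skeletal and cardiac tissue, was at 26.2, 28.7 and 27.5 CPM in Del(i9-13):Hoxb13hd, against 9.88, 7.72 and 9.99 CPM in Hoxb13hd. No Hoxb13hd library came near the Del(i9-13):Hoxb13hd range, and the log2 change was 1.58 (SE 0.22, adjusted p = 0.0091, and 0.0499 at most with any of the 6 libraries left out). Palmd, which encodes the actin-associated protein palmdelphin, was at 2.39 ± 0.381 CPM in Del(i9-13):Hoxb13hd and 0.659 ± 0.209 CPM in Hoxb13hd (log2 1.84, adjusted p = 0.0045, at most 0.028 with a library left out). The following were named after their values were seen. Tbx15, a T-box factor of mesenchyme, had a log2 change of 1.01, the adhesion molecule Vcam1 of 1.02, the matrix proteoglycan gene Dcn of 0.91, the muscle myosin light chain Mylpf of 0.97 and the collagen cross-linking enzyme Lox of 0.73. Each of these was lost when at least 1 of the 6 libraries was left out, with an adjusted p of 0.058 at most for Vcam1 and of 0.17 at most over the others.

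Of 16 limb bud genes Shox2 alone was called, against 0.959% of all genes tested. The median log2 difference of the list was 0.08, against −0.01 over all genes tested. Tbx5, the forelimb factor, was at 0.45 and Tbx4 and Pitx1, the hindlimb factors, at −0.33 and −0.27, all 3 not called. Among 17 genes of somite derivatives none was called, 13 lay above 0 and the median was 0.26. Myog, a factor of muscle differentiation, came nearest, at 18.9 ± 0.571 CPM in Del(i9-13):Hoxb13hd and 10.98 ± 1.99 CPM in Hoxb13hd (log2 0.78, adjusted p = 0.053). Scx, the tendon factor, was at 2.38 ± 0.472 and 1.09 ± 0.158 CPM (log2 1.13, adjusted p = 0.072).

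Other higher genes are known from neurons. Stmn2, a tubulin-binding protein of growing axons, was at 25.4, 24.2 and 23.6 CPM in Del(i9-13):Hoxb13hd, against 13.1, 7.62 and 13.3 CPM in Hoxb13hd. The Del(i9-13):Hoxb13hd libraries were close together, and Hoxb13hd replicate 2 was the lowest. The log2 change was 1.11 (SE 0.23, adjusted p = 0.046). Calb1, a calcium-binding protein of neurons and kidney tubules, rose (log2 2.06, SE 0.36, adjusted p = 0.021; 3.73 ± 0.458 CPM in Del(i9-13):Hoxb13hd and 0.888 ± 0.169 CPM in Hoxb13hd). So did Gria2, a subunit of AMPA glutamate receptors (log2 1.64, adjusted p = 0.038), Kcnmb2, a potassium channel subunit (1.62, adjusted p = 0.026), and Hmx1, a homeobox factor of sensory ganglia and craniofacial tissue (1.79, adjusted p = 0.048). Thsd7b (1.71), Nwd2 (1.86), Plppr1 (1.67) and the antisense gene Prdm16os (1.86) rose as well. For these 9 genes from Stmn2 to Prdm16os each call was lost without 1 library in 4 to 6 of the 6 such fits, always without Hoxb13hd replicates 2 and 3, with an adjusted p of 0.16 at most. Hmx1 and Plppr1 also lost their calls with the Xist level as a covariate (adjusted p of 0.064 and 0.059). Lhx2, a LIM homeobox factor of the forebrain, of spinal interneurons and of the limb bud, was at 27.5 ± 0.850 CPM in Del(i9-13):Hoxb13hd and 19.3 ± 1.83 CPM in Hoxb13hd (log2 0.51, adjusted p = 0.036, at most 0.16 with a library left out). Named after their values were seen, the factors Nhlh2 (1.23, adjusted p = 0.0053, at most 0.0288 with a library left out) and Bcl11a (1.52, adjusted p = 0.043) and the microtubule protein Mapt (1.08, adjusted p = 0.022) were also called.

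Of 22 genes of the spinal cord and its neurons, Stmn2 was the 1 member called, against 0.959% of all genes tested. Of the 22, 16 lay above 0 and the median was 0.39. None of the following members was called. The neuronal genes Nefl, Dcx, Tubb3 and Elavl4 were at log2 differences of 1.44, 1.35, 0.90 and 0.60, with adjusted p of 0.053, 0.068, 0.10 and 0.067. Olig2 and Pax6, which mark dividing progenitors of the ventral and more dorsal cord, were at −0.48 and −0.36 (adjusted p of 0.36 and 0.19). Sox1, a neural progenitor gene outside the list and named after its value was seen, fell (log2 −0.77, adjusted p = 0.047). In bulk libraries, fewer cells of a type and less RNA per cell cannot be told apart.

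Of the higher genes named by size, 3 encode plasma proteins that the liver makes. Plg, the precursor of plasmin, was at 3.67, 4.84 and 4.91 CPM in Del(i9-13):Hoxb13hd, against 1.03, 0.237 and 0.845 CPM in Hoxb13hd (log2 2.67, SE 0.53, adjusted p = 0.043). Serpind1 and Serpinc1, which encode the thrombin inhibitors heparin cofactor II and antithrombin, had log2 changes of 2.42 (adjusted p = 0.038) and 1.94 (adjusted p = 0.040). These 3 calls were lost in 4 or 5 of the 6 fits without 1 library, with an adjusted p of 0.16 at most. With the Xist level as a covariate they were lost too (adjusted p of 0.064, 0.055 and 0.056). Among 19 further genes of the liver bud and visceral endoderm 0 were called, against 0.959% of all genes tested. Of the 19, 16 lay above 0, and the median was 1.53. The groups did not overlap for 14 of the 19, against 22.6% of all genes tested. Afp was at 224, 274 and 207 CPM in Del(i9-13):Hoxb13hd, against 84.8, 14.4 and 65.2 CPM in Hoxb13hd (log2 2.10, SE 0.77, adjusted p = 0.25). Hnf4a, the hepatocyte factor, was at 6.42 ± 0.617 and 2.01 ± 1.39 CPM (log2 1.67, adjusted p = 0.11). The summed level of the 19 genes ran from 379 to 456 CPM in Del(i9-13):Hoxb13hd and from 67.8 to 184 CPM in Hoxb13hd. The part that the amount of liver or visceral endoderm tissue in the dissected samples had in the calls was not tested. Of 12 macrophage genes 0 were called and the median was 0.96. Cx3cr1, the fractalkine receptor, was at 1.64 (adjusted p = 0.063). Heart muscle genes, 14 in all, had a median of −0.05 with 0 called, and their summed level overlapped between groups, at 127 to 242 CPM in Del(i9-13):Hoxb13hd and 79.8 to 535 CPM in Hoxb13hd.

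A hormone receptor gene had the second largest change among the higher genes named by size. Agtr2, the angiotensin II type 2 receptor, which is abundant in fetal mesenchyme, was at 2.08, 1.68 and 1.35 CPM in Del(i9-13):Hoxb13hd, against 0.140, 0.0947 and 0 CPM in Hoxb13hd. Over the groups these were 121 and 5 counts, and the log2 change was 4.30 (SE 0.70, adjusted p = 0.015). The call was lost without Del(i9-13):Hoxb13hd replicate 1 or Hoxb13hd replicates 2 or 3 (adjusted p of 0.078 at most). Uts2b, a urotensin-related peptide gene, was at 1.29 ± 0.425 CPM in Del(i9-13):Hoxb13hd and 0.225 ± 0.0893 CPM in Hoxb13hd (log2 2.48, adjusted p = 0.041). Its call was lost in 5 of the 6 fits without 1 library, all but that without Hoxb13hd replicate 1, with an adjusted p of 0.17 at most. The Uts2b call was also lost with the Xist level as a covariate (adjusted p = 0.055).

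**Figure D3:**
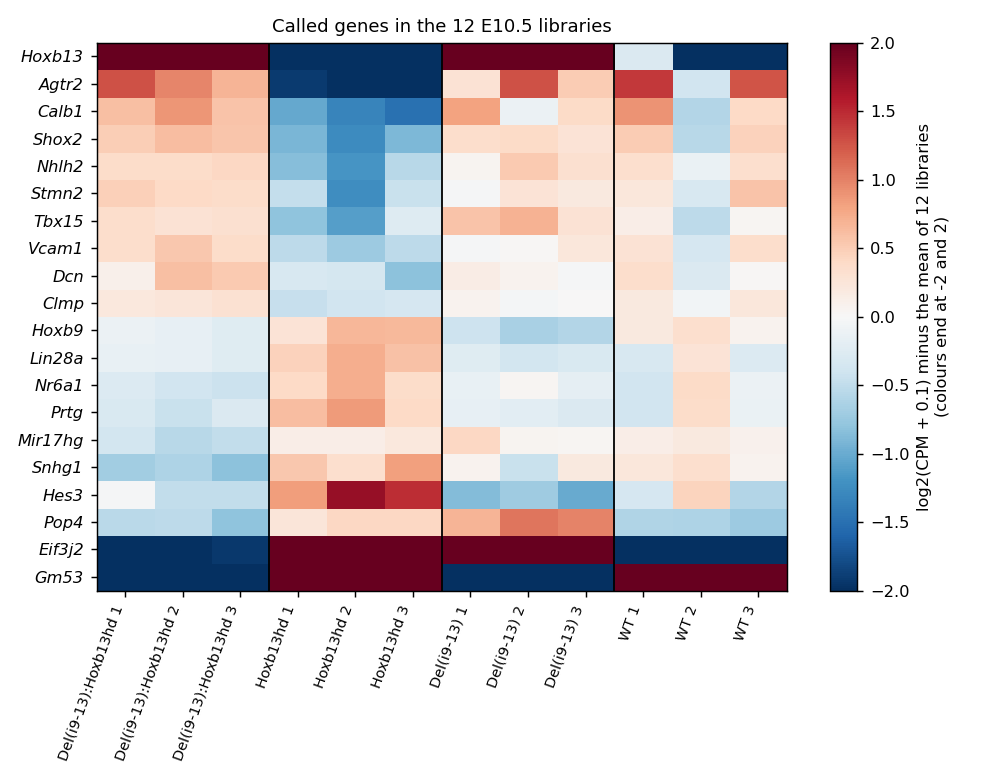
Level of 20 called genes in the 12 E10.5 libraries, as log2(CPM + 0.1) minus the mean of all 12, with colours ending at −2 and 2 and black lines between genotypes. Genes include those named by rule and some named after their values were seen; Shox2, Nhlh2 and Stmn2 are low in the Hoxb13hd columns, and Prtg, Lin28a and Snhg1 are high there.

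Genes known from the tail bud and from early progenitors were among those that fell. Lin28a, an RNA-binding protein that blocks the maturation of let-7 microRNAs and falls as development proceeds, was at 181, 180 and 170 CPM in Del(i9-13):Hoxb13hd, against 278, 334 and 304 CPM in Hoxb13hd. The groups were well apart, with a log2 change of −0.79 (SE 0.13, adjusted p = 0.017). Sp8, a zinc finger factor of the tail bud, neural tube and limb ridge, was at 16.9, 19.8 and 19.0 CPM in Del(i9-13):Hoxb13hd, against 21.9, 29.2 and 30.4 CPM in Hoxb13hd (log2 −0.55, SE 0.11, adjusted p = 0.045). Both calls were lost in 5 of the 6 fits without 1 library, with adjusted p of 0.08 and 0.18 at most. Prtg, a cell surface protein of the early neural tube and mesoderm, was at 180, 164 and 182 CPM in Del(i9-13):Hoxb13hd, against 342, 404 and 293 CPM in Hoxb13hd (log2 −0.98, SE 0.16, adjusted p = 0.020). Nr6a1, an orphan nuclear receptor that in mice sets the number of trunk vertebrae, was at 50.6, 46.7 and 45.4 CPM in Del(i9-13):Hoxb13hd, against 80.6, 101 and 79.0 CPM in Hoxb13hd (log2 −0.87, SE 0.16, adjusted p = 0.034). For Prtg and Nr6a1 the calls were lost in 4 and 5 of these fits, with adjusted p of 0.094 and 0.13 at most.

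Of 25 tail bud and neuromesodermal genes tested, Lin28a and Sp8 were the 2 called, against 0.959% of all genes tested, and 23 had negative values. The groups did not overlap for 19 of the 25, against 22.6% of all genes tested. The median log2 difference was −0.63, against −0.01 over all genes, and the summed level ran from 936 to 948 CPM in Del(i9-13):Hoxb13hd and from 1177 to 1346 CPM in Hoxb13hd. The following members were not called. The caudal factors Cdx1, Cdx2 and Cdx4, which act in axis extension, were at −1.04, −1.66 and −1.84, with adjusted p of 0.070, 0.10 and 0.16. Cdx2 was at 4.47, 4.64 and 4.12 CPM in Del(i9-13):Hoxb13hd, against 9.28, 17.3 and 15.2 CPM in Hoxb13hd. T (brachyury) was at −1.002 (adjusted p = 0.29), Nkx1-2, a marker of the progenitors, at −1.54 (adjusted p = 0.074), and Wnt3a, a ligand that maintains them, at −0.63 (adjusted p = 0.21). Lin28b, the paralog of Lin28a, was at −0.34 (adjusted p = 0.053). Gdf11, a signal of the change from trunk to tail, was at 0.11, and its groups overlapped.

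The segmentation clock is the set of oscillating genes that times somite formation. Of 24 genes tested of the clock and the presomitic mesoderm together, 0 were called, against 0.959% of all genes tested. Negative values were found for 20 of the 24, and the median was −0.19. Hes7, the oscillating repressor at its core, was at 0.796, 0.859 and 0.521 CPM in Del(i9-13):Hoxb13hd, against 2.38, 3.31 and 2.59 CPM in Hoxb13hd (log2 −1.92, SE 0.45, adjusted p = 0.064). Dll1, its Notch ligand, was at 53.7 ± 2.81 and 69.1 ± 7.15 CPM (log2 −0.36, adjusted p = 0.064). Hes3, a related repressor of the neural tube and outside the list, fell. It was at 1.59, 1.13 and 1.13 CPM in Del(i9-13):Hoxb13hd, against 2.98, 5.68 and 4.70 CPM in Hoxb13hd (log2 −1.79, SE 0.30, adjusted p = 0.019, at most 0.092 with a library left out). Of 17 Wnt pathway genes 0 were called and the median was −0.19.

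Outside the HoxB cluster, Hoxd4 fell, at 46.2, 39.5 and 40.7 CPM in Del(i9-13):Hoxb13hd, against 59.3, 57.8 and 64.1 CPM in Hoxb13hd (log2 −0.52, SE 0.09, adjusted p = 0.019). The call was lost in 4 of the 6 fits without 1 library (adjusted p of 0.099 at most). Hoxd4 was the 1 gene called of 15 from groups 1 to 8, against 0.959% of all genes tested. Hoxaas3, an antisense transcript of the HoxA cluster, fell as well (log2 −1.06, adjusted p = 0.036; 6.21 ± 0.981 CPM in Del(i9-13):Hoxb13hd and 13.0 ± 2.96 CPM in Hoxb13hd). Whether the counting used strand is not stated, so that reads of Hoxaas3 and of the genes it overlaps may not be told apart. Of 13 genes of groups 9 to 12 outside HoxB 0 were called, and their median was −0.21.

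Small nucleolar RNAs guide the chemical modification of ribosomal RNA, and 2 of their host genes fell. Snhg1 was at 78.2, 82.7 and 71.8 CPM in Del(i9-13):Hoxb13hd, against 184, 161 and 223 CPM in Hoxb13hd. Every Hoxb13hd library lay far above the highest Del(i9-13):Hoxb13hd library, and the log2 change was −1.29 (SE 0.16, adjusted p = 0.0033, at most 0.0288 with any of the 6 libraries left out). Snhg4 was at 22.7 ± 0.565 CPM in Del(i9-13):Hoxb13hd and 34.1 ± 4.05 CPM in Hoxb13hd (log2 −0.59, adjusted p = 0.021). These were the 2 called of 15 tested, against 0.959% of all genes tested. Of the 15, 13 had negative values, and the median was −0.41, against −0.01 over all genes tested. Zfas1, another host gene, named after its value was seen, fell (log2 −0.47, adjusted p = 0.036). Glycolysis and hypoxia genes, 21 in all, had 0 calls, 20 negative values and a median of −0.27. Over all 17202 genes tested, 9003 had negative values. The 24 sterol synthesis genes had 0 calls and a median of 0.03.

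Mir17hg (ENSMUSG00000089726, chr14:115042879-115046727, plus strand), the host transcript of the miR-17-92 cluster of microRNAs, which favours growth of early tissues, was named after its value was seen. It was at 47.4, 41.9 and 43.8 CPM in Del(i9-13):Hoxb13hd, against 67.4, 67.6 and 70.8 CPM in Hoxb13hd. The groups were apart with little spread in Hoxb13hd, and the log2 change was −0.63 (SE 0.09, adjusted p = 0.0091, at most 0.0585 with a library left out, where 2 of the 6 fits lost the call). The mature microRNAs it carries are shown with the seed in capitals, because the seed largely decides which messenger RNAs they pair with. By seed, miR-17 and miR-20a form a pair, as do miR-19a and miR-19b, and miR-18a and miR-92a each have a seed of their own. Their own levels were not measured.

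mmu-miR-17-5p: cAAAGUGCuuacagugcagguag
mmu-miR-20a-5p: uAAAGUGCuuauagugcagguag
mmu-miR-18a-5p: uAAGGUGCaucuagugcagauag
mmu-miR-19a-3p: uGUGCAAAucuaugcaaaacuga
mmu-miR-19b-3p: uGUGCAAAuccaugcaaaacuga
mmu-miR-92a-3p: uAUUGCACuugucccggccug

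Further lower genes named by size were Nlrp6, an inflammasome sensor (log2 −2.06, adjusted p = 0.034), Foxb1, a forkhead factor of the neural tube (−0.95, adjusted p = 0.029), Abca5, a lipid transporter (−0.90, adjusted p = 0.024), and Wfikkn1, a secreted protein that binds Gdf8 and Gdf11 (−0.80, adjusted p = 0.014). Wfikkn1 was at 14.7 ± 0.563 CPM in Del(i9-13):Hoxb13hd and 25.5 ± 2.701 CPM in Hoxb13hd. Each of these 4 calls was lost in 4 or 5 of the 6 fits without 1 library, with an adjusted p of 0.16 at most.

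**Figure D4:**
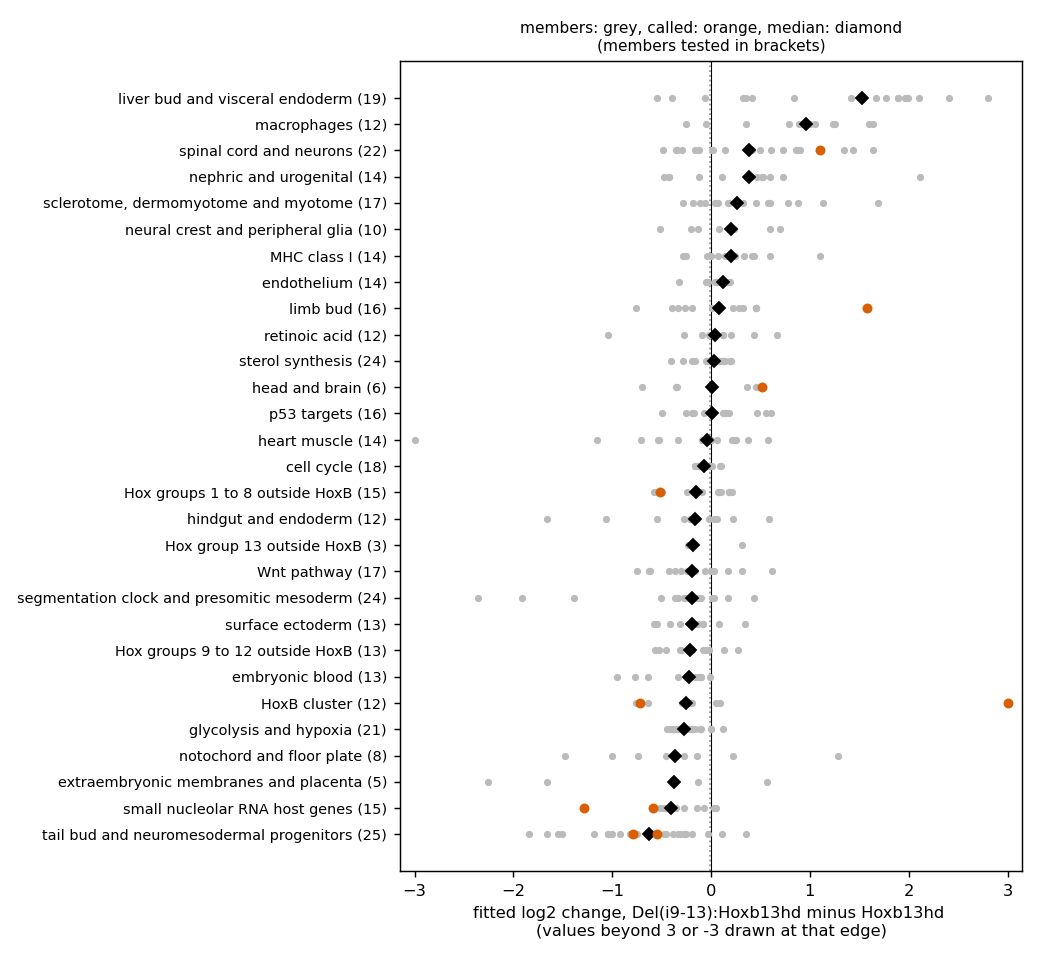
Fitted log2 change (Del(i9-13):Hoxb13hd minus Hoxb13hd) of the members tested of 29 gene lists, with called members in orange and the list median as a diamond; members tested are in brackets and a dotted line marks the median of all genes. Medians run from 1.53 for the liver bud and visceral endoderm list to −0.63 for the tail bud list, and called members are few in every list.

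The called genes were set beside the change that WT embryos showed between E9.5 and E10.5, which shares no library with the 2 groups compared. The earlier libraries were made from poly(A) RNA and the later ones after ribosomal RNA was depleted, so that stage and library type cannot be told apart in this contrast. Of the 109 higher genes that were also tested between stages, 88 (80.7%) were higher at E10.5 than at E9.5 in WT and 1 was lower, with a median log2 difference of 0.99. Over all genes tested in both, 30.1% were higher and 27.2% were lower at E10.5, with a median of 0.04. Of the 42 lower genes so tested, 21 (50%) were lower and 7 (16.7%) were higher at E10.5, with a median of −0.54. Shox2 and Nhlh2 were higher at E10.5 than at E9.5 in WT by 2.59 and 2.88, and Lin28a, Nr6a1 and Hoxb9 were lower by log2 values of −1.13, −1.26 and −1.48.

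A stage index was taken for each E10.5 library as the mean log2 level of the 1877 genes that were higher at E10.5 in WT by at least a log2 of 1, minus that of the 891 genes that were lower by as much. The index was −1.64, −1.70 and −1.74 in the Del(i9-13):Hoxb13hd libraries, against −1.94, −2.04 and −1.86 in the Hoxb13hd libraries. It was −1.49, −1.24 and −1.37 in the Del(i9-13) libraries and −1.08, −1.36 and −1.22 in the WT libraries, which were used to choose its genes. The Hoxb13hd libraries were the lowest of the 12, and those of Del(i9-13):Hoxb13hd came next without overlap. Because the index differed between the 2 groups without overlap, index and genotype cannot be told apart in these libraries. With the index as a covariate, an alternative added after the data were seen, 9 genes were called, 2 higher and 7 lower. Of these, 8 were also called without it, among them Gm53, Pop4 and Eif3j2, and Hoxb13 kept its size (log2 7.36) but was not called (adjusted p = 0.12).

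**Figure D5:**
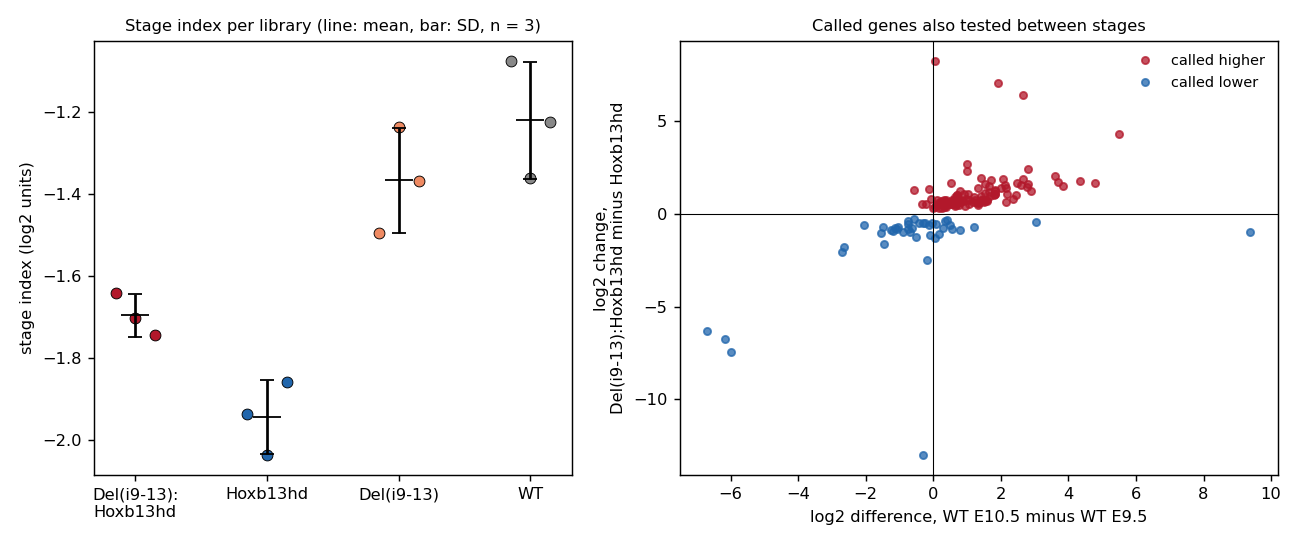
Left, the stage index of each E10.5 library (points) with the mean (line) and SD (bar) of 3 libraries per genotype, where a higher value means relatively more RNA of genes that are higher at E10.5 in WT; the axis does not start at 0. Right, the log2 change of the called genes against their log2 difference between WT embryos at E10.5 and E9.5, where most of the genes called higher lie to the right of 0.

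By group means over the 4 genotypes at E10.5, Hoxb13hd was the lowest for 113 of the 116 higher genes and the highest for 40 of the 49 lower genes. Over all 17202 genes tested it was the lowest for 4958 and the highest for 5038. The genes were chosen for a difference between Hoxb13hd and Del(i9-13):Hoxb13hd, which by itself favours Hoxb13hd as the extreme. The counts among called genes are therefore a description. Shox2 was at 27.4 ± 1.253 CPM in Del(i9-13):Hoxb13hd and 9.20 ± 1.28 CPM in Hoxb13hd, and at 23.6 ± 0.964 CPM in Del(i9-13) and 21.6 ± 7.75 CPM in WT. Prtg was at 175 ± 10.1 and 346 ± 55.6 CPM in Del(i9-13):Hoxb13hd and Hoxb13hd, and at 191 ± 9.16 and 221 ± 60.2 CPM in Del(i9-13) and WT.

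Whether the deletion acted alike with and without hd was asked with an interaction term over the 12 E10.5 libraries. It was called for 90 genes (0.523%), 47 with a higher and 43 with a lower change in the presence of hd, and 22 of them were pseudogenes. Of these, 40 were among the 165 genes called in Del(i9-13):Hoxb13hd against Hoxb13hd. That contrast is a part of the interaction, so that some overlap follows from the shared libraries. The contrast of Del(i9-13) against WT, which has no library in common with that of Del(i9-13):Hoxb13hd against Hoxb13hd, called 84 genes (0.488%). The 19 genes called in both were 11.5% of the calls with hd and 22.6% of those without it. Of the 19, 6 changed in the same direction, namely Hoxb13, Hoxb9, Gm53, Abca5, Noc2l and Gm5182.

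For Hoxb13 the change was 7.67 with hd and 4.49 without it, and the interaction of 3.18 was not called (adjusted p = 0.42). Hoxb9 changed by −0.71 with hd and −0.75 without it (interaction 0.04, adjusted p = 0.94), and Abca5 by −0.90 in both. A p that misses the threshold does not show that the changes were alike.

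The other 13 genes called in both contrasts changed in opposite directions, and their levels followed the pairs of genotypes. Pop4, a subunit of RNase P, was at 30.5 ± 3.20 CPM in Del(i9-13):Hoxb13hd and 60.1 ± 4.21 CPM in Hoxb13hd, and at 88.9 ± 12.2 CPM in Del(i9-13) and 29.9 ± 1.51 CPM in WT. Its log2 change was −0.98 with hd (adjusted p = 8.2e-04) and 1.57 without it. Eif3j2, a subunit gene of a translation initiation factor, was at 0, 0.0780 and 0.217 CPM in Del(i9-13):Hoxb13hd, against 7.79, 8.10 and 9.46 CPM in Hoxb13hd. In Del(i9-13) it was at 6.61 ± 0.589 CPM and in WT at 0.114 ± 0.0627 CPM. Eif3j2 has a near-identical paralog, Eif3j1, and pseudogenes are among the other genes of this kind. How the authors counted reads with several matches is not stated, so that the counts of these paralogs and pseudogenes are uncertain. Pcna-ps2, a pseudogene of Pcna named after its value was seen, was at 0.164 ± 0.115 CPM in Del(i9-13):Hoxb13hd and 18.8 ± 2.56 CPM in Hoxb13hd, and at 16.3 and 0.287 CPM on average in Del(i9-13) and WT. The histone H4 gene H4f16 was at 242 ± 23.5 and 474 ± 63.5 CPM in Del(i9-13):Hoxb13hd and Hoxb13hd, and at 635 ± 147 and 219 ± 14.5 CPM in Del(i9-13) and WT. Gchfr, a regulator of tetrahydrobiopterin synthesis, was at 0.757 ± 0.328 and 2.41 ± 0.547 CPM in Del(i9-13):Hoxb13hd and Hoxb13hd, and at 2.203 ± 0.761 and 0.645 ± 0.154 CPM in Del(i9-13) and WT. Tmem35b and Trmo, an enzyme that methylates transfer RNA, also fell with hd (log2 −1.25 and −1.13, adjusted p of 0.045 and 0.034, lost in 6 and 5 of the 6 fits without 1 library).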

How the data were processed

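Mouse RNA sequencing libraries were analysed from 2 deposited tables. The count table holds whole-number read counts per Ensembl gene (55141 genes), made by the authors. Trimming by cutadapt 1.18 and alignment by STAR 2.7.10a on the mm10 build are named in the submitters' processing notes. The FPKM table (55138 genes) holds FPKM from the authors' run of Cufflinks 2.2.1, as those notes name it. The E10.5 libraries were ribo-depleted with stranded kits, per the labels' protocols. The counts were deposited under the name of HTSeq counts, and the strand setting of the counting is not stated in the labels.

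Groups were taken from sample titles. Genes were filtered with filterByExpr (minimum count 10, minimum total 15), and the 12 E10.5 libraries were scaled with TMM and fitted with the robust quasi-likelihood model of edgeR 4.0.16 in R 4.3.3. The interaction and Del(i9-13) against WT came from the same fit, and the stage contrast from a separate fit of the 6 WT libraries. The model was tested on simulated data. FPKM served for comparing genes per length and, with limma 3.58.1 on log2 FPKM, as an alternative, as did DESeq2 1.42.0. Gene types came from GENCODE M21 on mm10. Intervals are exact at 95%, and the floor is 3 counts over a group; both cover counting error only. At 19.3 M counts and more, replicates varied beyond counting error over all genes together. For genes with few counts in a group, such as Hoxb13, Agtr2 and Mir196a-1, counting error limits the precision as well.

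Genes were named by a rule. The locus genes (Hoxb13, Gm53, Mir196a-1, every further HoxB gene) and the group 13 genes of other clusters came first. Next came, in each direction, at most 15 called genes of largest change with at least 1 CPM on average in either group, no overlap between groups and a name of their own, sex-linked genes left out. From 30 gene lists it took the called members, or else the 2 with the smallest p. Other members of lists are given as values, and other genes are said to be named after their values were seen. The groups, lists, rule and alternatives were chosen with earlier results of these data known. A gene is not reported here.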

Additional observations from a re-analysis of the deposited data

Results flagged for a closer look

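For 10 of the genes named by size the change with the deletion differed between embryos with and without hd, by the interaction term of the edgeR fit (adjusted over 17202 genes). They were named for a large change with hd, which is itself a part of the interaction. The interaction values are therefore a description of chosen genes and not independent support. The value given first is the interaction, the log2 change with hd minus that without it. It was 4.52 for Agtr2 (adjusted p = 0.039), with changes of 4.30 with hd and −0.22 without it. It was 2.55 for Nwd2 (adjusted p = 0.023; 1.86 and −0.69), 1.95 for Palmd (adjusted p = 0.023; 1.84 and −0.11) and 2.57 for Plppr1 (adjusted p = 0.036; 1.67 and −0.90).

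Among the genes that fell with hd, the interaction was −12.12 for Eif3j2 (adjusted p = 1.1e-07; changes of −6.35 with hd and 5.78 without it) and −2.55 for Pop4 (adjusted p = 1.3e-06; −0.98 and 1.57). It was −2.50 for H4f16 (adjusted p = 6.8e-05; −0.97 and 1.53), −3.41 for Gchfr (adjusted p = 0.0059; −1.65 and 1.76), −1.95 for Tmem35b (adjusted p = 0.036; −1.25 and 0.70) and −1.71 for Trmo (adjusted p = 0.026; −1.13 and 0.58).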

How the results depend on the processing

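Counts of calls moved more than their direction did, from 116 higher and 49 lower genes. They were 235 and 94 with no filter, 448 and 196 with DESeq2, 210 and 107 with only the 6 libraries compared, and 50 and 20 at an absolute log2 change of at least 1. With limma on log2 FPKM the higher genes numbered 187 with a pseudocount of 0.1 and 184 with 1, and unfiltered 24 higher and 19 lower genes were called, with 47 for the interaction, against 90. DESeq2 called 287 for the interaction. With the stage index as a covariate there were 2 and 7 calls, and Hoxb13 lost its call (log2 7.36). Without Hoxb13hd replicates 2 and 3 together there were 6 and 11, and Hoxb13 lost its call at log2 11.003. In that fit the remaining Hoxb13hd library had 0 counts of Hoxb13 and was assumed to vary like the other groups. A single library shows no spread of its own, so that no conclusion is drawn from these calls. Leaving out 1 library at a time gave 17 to 306 higher genes, 15 to 106 lower genes and 40 to 88 for the interaction, and a log2 of 7.11 to 8.59 for Hoxb13, always called. Hoxb6, not called, ran from −0.0487 (without Hoxb13hd replicate 2) to 0.16, against 0.05. The cause of these differences was not tested. RLE scaling gave 102 and 47 calls, 1 CPM in 3 libraries 106 and 52, and an Xist covariate 80 and 39. With the Xist covariate 10 of 51 genes named lost their call, among them Plg, Serpind1, Serpinc1, Uts2b, Hmx1 and Plppr1.

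Replicate numbers did not pair the samples. Same-numbered libraries had correlations of −0.15, 0.05 and −0.06 between their deviations from the group means. With the replicate number as a block, 48 higher and 38 lower genes were called and Hoxb13 kept its call (log2 7.67). Of 51 genes named, 24 lost their call with the block, among them Hoxb9 (adjusted p = 0.0525). The 51 include genes that had no call to lose, such as Hoxb1 to Hoxb8, so that the share among called genes was larger.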
